A study of Mus musculus with 10 samples.

Results

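The genes followed here encode the machinery that copies DNA, from the proteins that mark replication origins to those that join the new strands and wrap them into chromatin. The 45 genes were found by symbol among the 57825 genes of the table, and each symbol was listed once. They were read in CD8+ T cells from spleens of female Balb/c mice, isolated with a magnetic kit, activated for 12 h on anti-CD3-coated plates with anti-CD28 antibody and IL-2, kept for 24 h with or without sodium acetate (NaAc), and then grown for 48 h with 4T1 cells, a mouse mammary carcinoma line. The samples fall into 5 without NaAc (CD8+4T1) and 5 with 5 mM NaAc (CD8+4T1+NaAc), labelled day 3. Tumor cells were present in the cultures of both groups, and RNA was taken from purified CD8+ T cells. The comparison asks how acetate changes the T cells' RNA during the co-culture. The sources used here do not say that the samples came from separate animals or cultures, so the p-values measure the spread between these samples, which may be technical. In bulk RNA, fewer cells of a type and less RNA per cell cannot be told apart.

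Replication begins when the origin recognition complex (ORC), Cdc6 and Cdt1 load the MCM2-7 helicase onto DNA, a step called licensing that geminin (Gmnn) blocks by binding Cdt1. Cdc45 and the GINS complex then turn the loaded MCM ring into the working helicase. DNA polymerase alpha with primase starts each strand, the clamp loader RFC sets the clamp PCNA, and DNA polymerases delta and epsilon extend the strands. Activated T cells divide fast, and many of these genes are switched on together before S phase by E2F transcription factors.

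Promoter sequences of 8 of these genes are shown. Their promoters either carry an E2F motif, which the choice of genes did not use, or lack it among the genes that differed most. The reference promoter windows from RefSeq (GRCm38.p6), from 250 bases before to 50 bases after the transcription start, matched 37 of the 45 genes. The unmatched genes were Gins1, Gins2, Gins4, Gmnn, Mcm4, Pole, Prim2 and Rfc2. The words searched on both strands were TTTCCCGC, TTTCGCGC, TTTGCCGC and TTTGGCGC, forms of the E2F motif, and CCAAT, the NF-Y motif. Words on opposite strands can overlap. At least 1 E2F word lay in the window of 15 of the 37 matched genes (40.5%), against 704 of 27025 genes in all (2.61%). CCAAT lay in 24 of the 37 (64.9%), against 41.1% of all genes. The stretches below are the 160 bases just before the start, written 5′ to 3′ along the gene, and capitals mark E2F or CCAAT words lying wholly inside the stretch, in either orientation.
Mcm5 (chr8:75109349-75109508, + strand): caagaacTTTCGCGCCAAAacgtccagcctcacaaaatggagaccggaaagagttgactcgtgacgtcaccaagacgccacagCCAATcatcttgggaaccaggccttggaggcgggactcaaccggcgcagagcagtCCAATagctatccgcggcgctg
Mcm6 (chr1:128359706-128359865, - strand): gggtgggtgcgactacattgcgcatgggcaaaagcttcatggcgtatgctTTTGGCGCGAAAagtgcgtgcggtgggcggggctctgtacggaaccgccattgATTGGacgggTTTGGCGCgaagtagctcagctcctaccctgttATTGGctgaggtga
Orc1 (chr4:108579294-108579453, + strand): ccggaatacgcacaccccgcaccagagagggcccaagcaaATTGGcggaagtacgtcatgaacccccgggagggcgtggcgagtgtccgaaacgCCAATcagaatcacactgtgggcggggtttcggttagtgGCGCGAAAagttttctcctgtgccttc
Rfc3 (chr5:151651209-151651368, - strand): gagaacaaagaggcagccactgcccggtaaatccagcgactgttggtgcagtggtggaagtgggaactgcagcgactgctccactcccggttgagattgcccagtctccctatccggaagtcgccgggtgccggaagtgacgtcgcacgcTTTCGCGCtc
Cdt1 (chr8:122567855-122568014, + strand): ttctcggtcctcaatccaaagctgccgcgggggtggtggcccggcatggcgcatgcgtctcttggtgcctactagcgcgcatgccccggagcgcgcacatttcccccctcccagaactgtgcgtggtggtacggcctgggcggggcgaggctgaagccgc
Cdc45 (chr16:18811973-18812132, - strand): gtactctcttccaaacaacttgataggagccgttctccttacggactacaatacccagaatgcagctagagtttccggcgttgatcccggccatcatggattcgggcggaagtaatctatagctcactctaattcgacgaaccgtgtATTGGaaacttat
Prim1 (chr10:128015055-128015214, + strand): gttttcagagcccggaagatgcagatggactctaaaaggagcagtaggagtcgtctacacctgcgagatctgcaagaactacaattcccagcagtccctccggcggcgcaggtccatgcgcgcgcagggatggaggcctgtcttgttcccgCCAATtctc
Rpa3 (chr6:8259142-8259301, - strand): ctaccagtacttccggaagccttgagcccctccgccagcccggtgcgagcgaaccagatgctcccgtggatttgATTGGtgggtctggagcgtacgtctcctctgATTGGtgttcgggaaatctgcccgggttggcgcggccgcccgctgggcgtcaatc

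In Mcm5 and Mcm6, which encode helicase subunits, E2F words on opposite strands overlap. The E2F word of Cdt1 lies after the start, at base 33, and is therefore not in the stretch shown. No E2F word of these 4 forms lay in the windows of Cdc45, Prim1 or Rpa3, 3 of the genes with the clearest falls described below. By outcome of the test below, E2F words lay in 5 of the 10 matched genes that were lower, in 8 of the 25 that were not called and in both matched genes that were higher. A match is a description of letters in the window and not a measured binding site.

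**Figure D1:**
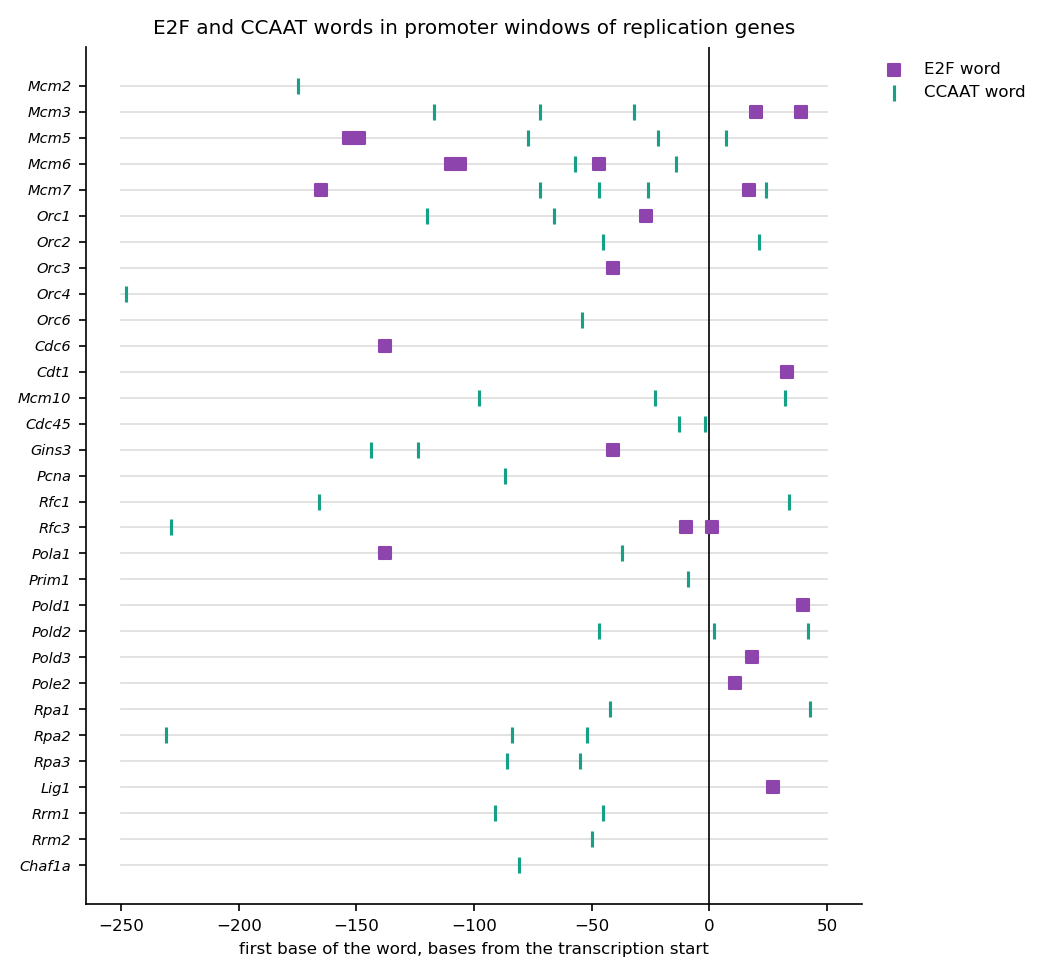
Positions of E2F words (squares) and CCAAT words (ticks) in the promoter windows of the replication genes that hold at least 1 of them. The x axis gives the first base of the word in bases from the transcription start, from 250 before to 50 after, and the E2F words are spread from position -165 to position 40.

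All 45 genes were expressed in every sample and passed the filter of a mean of at least 0.5 FPKM (fragments per kilobase of gene length, scaled to the sample's fragments), with mean levels from 4.37 FPKM for Orc5 to 84.7 FPKM for Mcm3. Between 160 and 6078 fragments lay behind each value. The FPKM refer to 16306447 to 18853726 fragments per sample, of which the listed genes held 95.5% to 97.9% in CD8+4T1 and 89.8% to 92.1% in CD8+4T1+NaAc. Replicate 1 of CD8+4T1+NaAc stood apart, with 20233 genes above 0 where the other samples of its group had at least 24681, and it was the lowest sample of its group for 27 of the 45 genes. Replicate 1 of CD8+4T1 was also the lowest of its group, with 22291 genes above 0 where the others had at least 23786. Its listed genes held 95.5% of the fragments, where the others of that group had at least 97.0%. Those of the 45 genes whose call changed without replicate 1 of CD8+4T1+NaAc are given both ways, and for the further lists the change is given in counts. CD8 T cell markers were present in every sample, with 0 of 12 listed genes at 0. They summed to 976 to 1088 FPKM in CD8+4T1 and 888 to 1028 FPKM in CD8+4T1+NaAc. Of these 12 genes 1 was called higher and 6 lower with NaAc, beside 17.6% and 19.0% of all genes tested. Markers of epithelial and 4T1 cells (20 genes) summed to 50.4 to 63.0 FPKM in CD8+4T1 and 183 to 385 FPKM in CD8+4T1+NaAc. Of the 12 such markers that could be tested 9 were higher with NaAc, among them Krt8, at 1.77 to 5.66 FPKM against 19.96 to 53.5 FPKM. Sfn, Epcam and Cldn7 were not called, and Krt5 and Esrp1 were at or near 0 in both groups. In CD8+4T1 the largest parts of the sum were Sfn, Spp1 and Areg (12.9, 12.7 and 11.7 FPKM on average). With NaAc these 3 averaged 12.7, 78.5 and 31.0 FPKM. Markers of B, myeloid, NK, CD4 T, erythroid and fibroblast cells (19 genes) summed to 15.8 to 17.4 FPKM without and 23.3 to 25.5 FPKM with NaAc. Much of that sum was Eomes, which CD8+ T cells express as well (9.46 ± 0.702 and 12.7 ± 0.971 FPKM, SD, n = 5 each). Of the 6 that could be tested, Eomes, Cd4 (0.541 and 1.601 FPKM on average), Pdgfra (0.149 and 1.16) and Lyz2 (0.536 and 1.12) were higher with NaAc, and Hbb-bs and Col3a1 were at 0 in every sample. Tumor cells replicate their DNA with the same genes, and the part of tumor RNA in the results below was not tested.

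With NaAc, 1 or 2 subunits of several replication complexes were lower, the licensing factor Cdt1 was higher, and most of the other genes were not called. In limma, 16 of the 45 genes were called at an adjusted p under 0.05, where 36.5% of the 15710 genes tested were called. Higher in CD8+4T1+NaAc were 3 genes (Cdt1, Pole and Pold1), beside 17.6% of all genes tested. Lower were 13 (Rpa3, Orc5, Rfc3, Gins1, Cdc45, Gmnn, Prim1, Pold3, Rfc4, Gins4, Pola1, Orc1 and Cdc6), beside 19.0% of all genes tested. Genes of higher level were called more often, and among the 7800 genes that average 5 FPKM or more limma called 16.1% higher and 31.7% lower, beside 3 and 13 of the 44 replication genes that pass that limit. The median log2 fold change of the 45 genes was -0.04, beside -0.02 for all genes tested. Groups that did not overlap were seen with NaAc higher in 1 gene, where 13.1% of all genes tested did so, and with NaAc lower in 10 genes, where 13.3% did so. The share without overlap among genes that average 5 FPKM or more was not taken, so the 10 genes are not read as an excess. The lower genes belonged to different complexes, and in most complexes a called subunit stood beside partners that were not called.

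**Figure D2:**
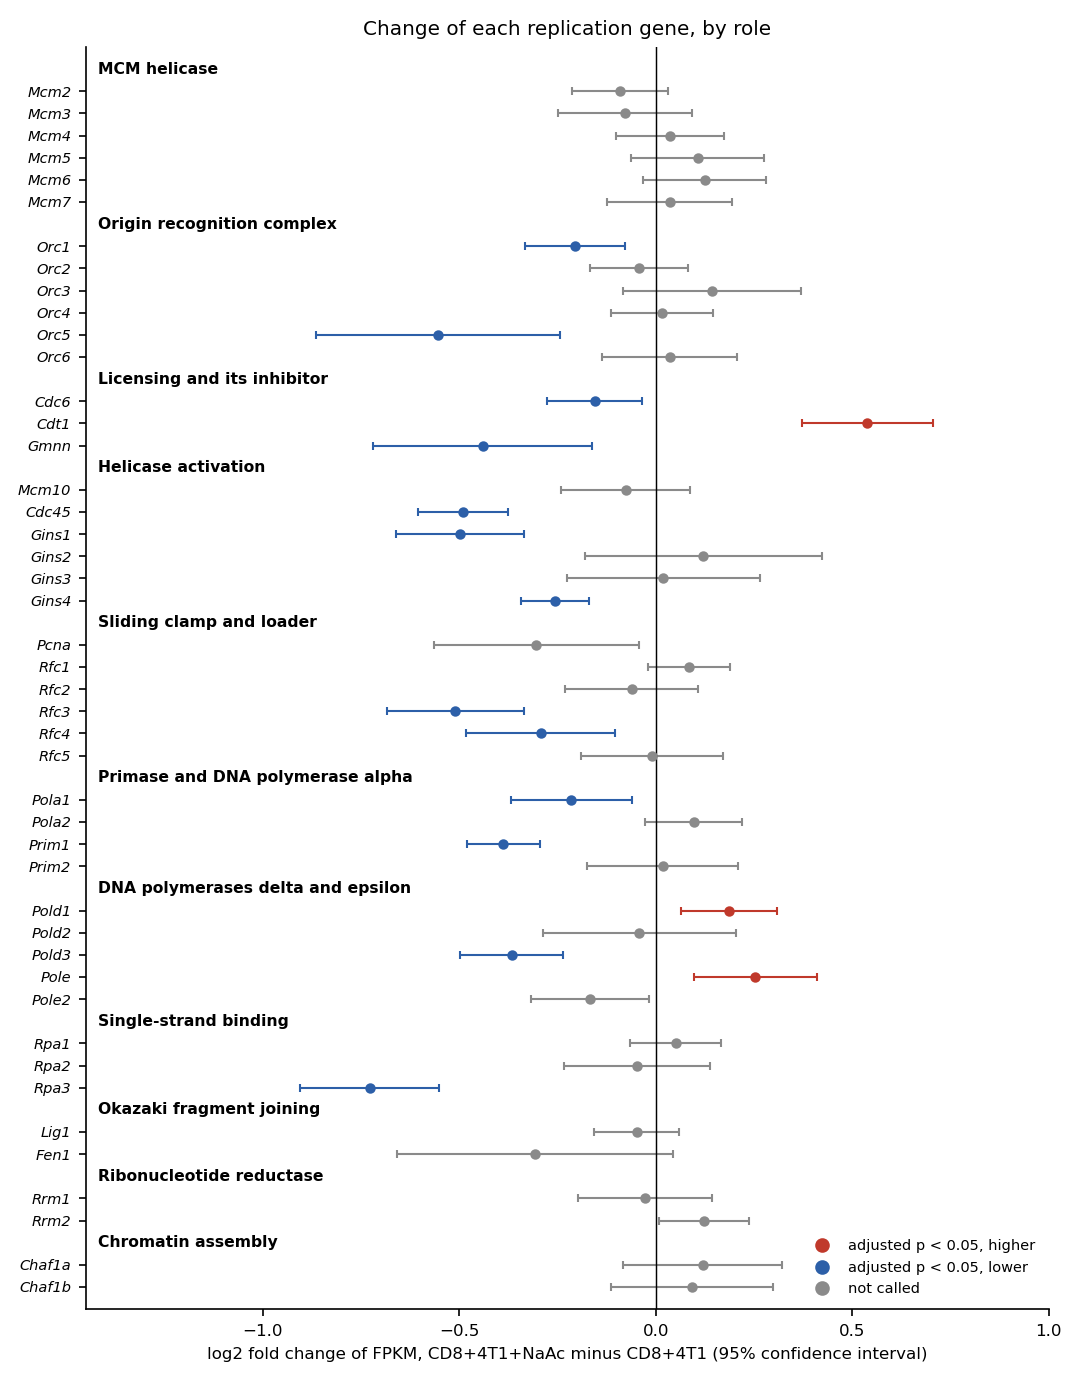
Log2 fold change of each of the 45 replication genes, CD8+4T1+NaAc minus CD8+4T1, on the log2(FPKM + 0.1) scale, grouped by role. Points are limma estimates, bars are 95% confidence intervals, and colors give the call. Cdt1 stands at 0.54 and Rpa3 at -0.73, and none of Mcm2 to Mcm7 is called.

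The directions of small changes depend on how the samples are scaled. Scaling every sample to the same total FPKM moved the median for all genes tested to 0.15 (log2) and that for the replication genes to 0.13. With it 15 replication genes were called higher and 6 lower, beside 31.2% and 8.83% of all genes tested. The 12 genes called higher with the same total and not as listed were Mcm4, Mcm5, Mcm6, Mcm7, Orc3, Orc4, Rfc1, Pola2, Rpa1, Rrm2, Chaf1a and Chaf1b. All of these but Orc4 and Chaf1a were also called higher with scaling to the CD8 T cell markers, and Mcm5, Mcm6, Rfc1, Pola2, Rpa1 and Rrm2 with scaling to the fragments in listed genes. Median-ratio scaling gave 3 higher and 13 lower (16.7% and 20.2% of all genes tested), and scaling to the CD8 T cell markers gave 13 and 7 (26.3% and 8.55%). Of those 12 markers 1 was itself called higher and 6 lower with FPKM as listed, so that scaling moves with them. Scaling to the fragments in listed genes, added after the data were seen, gave 9 and 8 (24.1% and 13.2%). Without replicate 1 of CD8+4T1+NaAc, 7 were higher and 13 lower, beside 21.7% and 22.6% of all genes tested. Under all 5 scalings, the listed FPKM included, Cdt1, Pole and Pold1 were called higher and Cdc45, Gins1, Rfc3, Prim1, Pold3 and Rpa3 lower. Of these 9 genes, Cdt1 and the 6 lower ones were also called in each of the 26 alternatives run, which change the scaling, the filter, the pseudocount, the model or the samples.

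**Figure D3:**
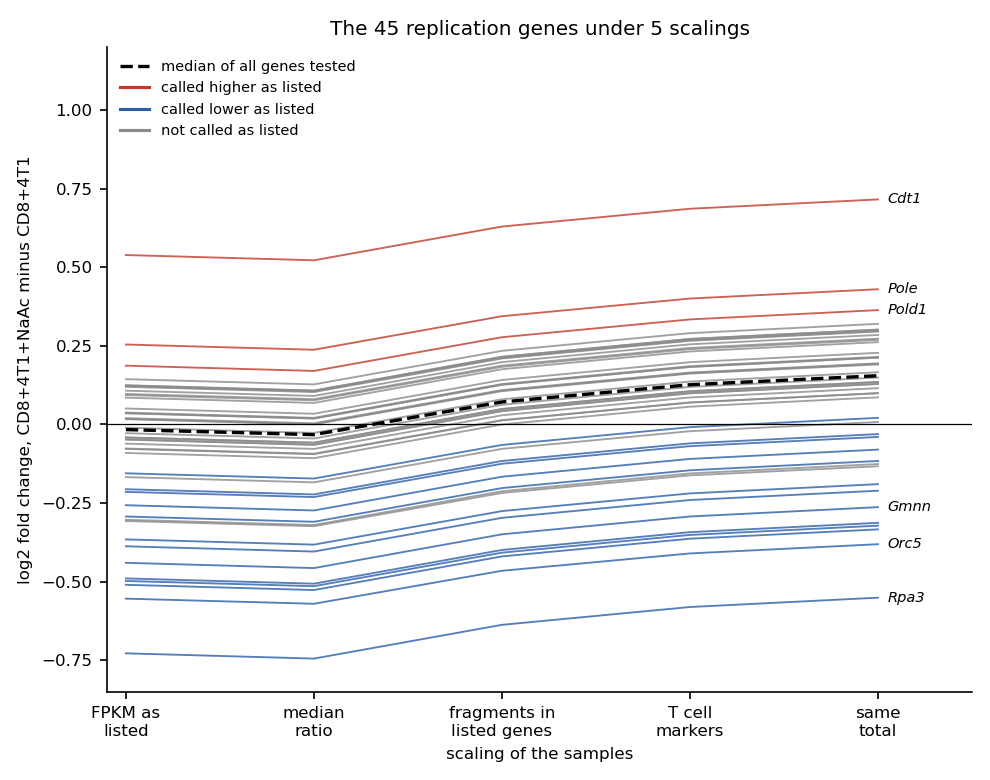
Log2 fold change (CD8+4T1+NaAc minus CD8+4T1) of the 45 replication genes (lines, colored by call with FPKM as listed) under 5 scalings of the samples. The dashed line is the median of all genes tested, which moves from -0.02 with FPKM as listed to 0.15 with the same total, and the lines move with it nearly in parallel.

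Licensing held the largest rise among the 45 genes. Cdt1, which loads the MCM ring together with Cdc6, had 25.2, 22.6, 23.5, 26.4 and 23.0 FPKM in CD8+4T1 replicates 1 to 5 and 30.01, 39.2, 33.5, 36.6 and 36.8 FPKM in CD8+4T1+NaAc. Every sample with NaAc was above every sample without it, and replicate 1 was the lowest of those with NaAc. The log2 fold change was 0.54 (standard error 0.08, limma adjusted p = 0.000336), and 0.50 to 0.59 with any sample left out.

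Gmnn, whose protein geminin holds Cdt1 inactive outside G1, was at 39.9, 40.9, 38.6, 44.7 and 43.1 FPKM without NaAc and at 44.0, 26.4, 28.7, 26.7 and 29.4 FPKM with it. Replicate 1 with NaAc lay among the levels of CD8+4T1, while the other 4 were lower than every sample of that group. The log2 fold change was -0.44 (standard error 0.13, limma adjusted p = 0.0186) with all samples and -0.57 (adjusted p = 4.01e-05) without that replicate. The call was lost with the same total (-0.26, adjusted p = 0.137), with T cell marker scaling and with scaling to fragments in listed genes.

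Cdc6, the ATPase that works with ORC, was at 14.9, 15.9, 15.5, 16.02 and 17.04 FPKM without NaAc and at 13.2, 15.4, 14.4, 13.9 and 14.3 FPKM with it. The groups overlap through replicate 2 with NaAc. The call of Cdc6 (log2 fold change -0.16, limma adjusted p = 0.0446) was lost in 16 of the 26 alternatives, among them the fit without replicate 1 of CD8+4T1+NaAc (-0.13, adjusted p = 0.0607).

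The balance between the licensing factor and its inhibitor was also read as a ratio within each sample, which no scaling of the samples can change. The ratio of Gmnn to Cdt1 was 1.58, 1.81, 1.64, 1.69 and 1.87 in CD8+4T1 and 1.46, 0.675, 0.857, 0.730 and 0.799 in CD8+4T1+NaAc. All samples with NaAc lay below all samples without it, although replicate 1 with NaAc came close. The mean fell from 1.72 ± 0.120 (SD, n = 5) to 0.905 ± 0.320 (SD, n = 5), a log2 difference of -0.98 (exact permutation test, two-sided, p = 0.00794, the smallest possible for 5 against 5, and 0.0198 after adjustment over the 5 ratios tested). The pairs were set with earlier results of these data known, and Gmnn and Cdt1 were themselves called, in opposite directions, so this p is no independent support for their difference.

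**Figure D4:**
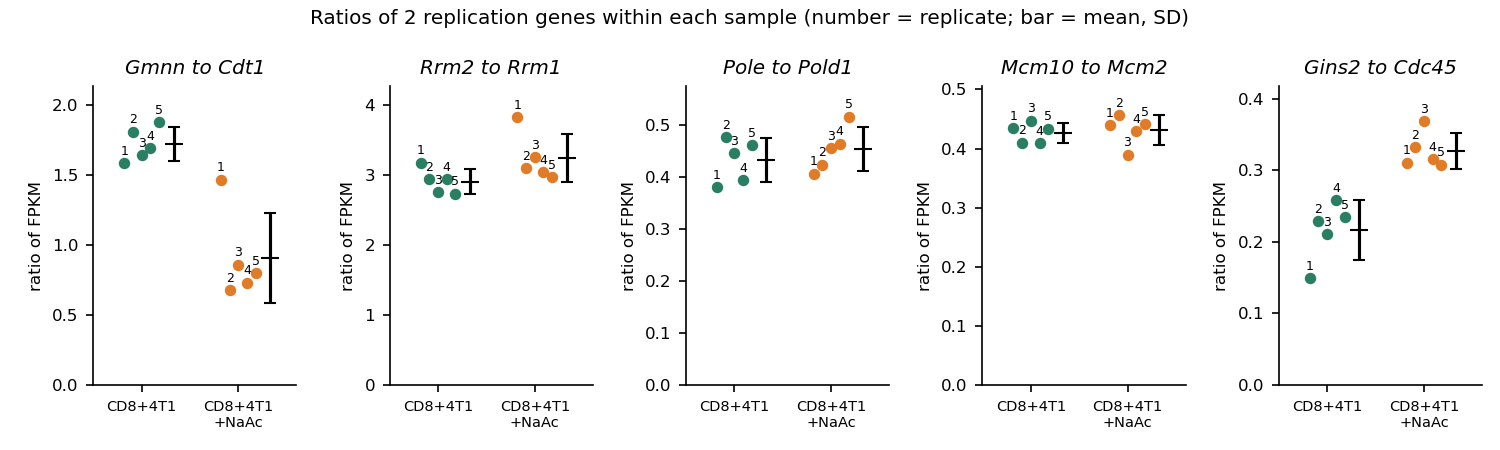
Ratios of the FPKM of 2 replication genes within each sample, for the 5 pairs tested. Points are samples labelled by replicate, bars give the mean and SD, and each y axis starts at 0. Gmnn to Cdt1 fell from 1.72 to 0.905 and Gins2 to Cdc45 rose from 0.216 to 0.327, with no overlap between the groups, and the other pairs overlap.

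The MCM2-7 helicase, which unwinds the DNA ahead of the polymerases, showed no called subunit. Mcm3 had the highest mean level of the 45 genes over all samples. It was at 86.4, 84.95, 88.3, 84.6 and 89.7 FPKM in CD8+4T1 and at 66.9, 85.9, 84.5, 83.1 and 92.9 FPKM in CD8+4T1+NaAc. Mcm2 had 24.8, 25.2, 25.4, 25.6 and 27.3 FPKM without NaAc and 21.6, 26.3, 24.3, 23.5 and 24.8 FPKM with it. For both, replicate 1 stood below the other samples with NaAc, which lay among or near those without it. In CD8+4T1 Mcm4 had 57.8 to 64.9 FPKM, Mcm5 54.6 to 65.6, Mcm6 46.4 to 50.2 and Mcm7 50.6 to 56.3 FPKM. With NaAc the ranges were 55.8 to 70.3 for Mcm4, 54.3 to 70.9 for Mcm5, 43.5 to 58.3 for Mcm6 and 47.1 to 62.8 FPKM for Mcm7. The groups overlapped for each MCM gene, and replicate 1 with NaAc was the lowest of all 10 samples for all 6. Log2 fold changes ran from -0.09 for Mcm2 to 0.12 for Mcm6. By limma, 0 of 6 were called, 0 had an unadjusted p under 0.05, and limma's voom on the recovered fragments also called 0. Without replicate 1 of CD8+4T1+NaAc, Mcm5 (log2 fold change 0.17, limma adjusted p = 0.0384) and Mcm6 (0.19, adjusted p = 0.00350) were called higher. With the same total and with T cell marker scaling, Mcm4, Mcm5, Mcm6 and Mcm7 were called higher, so no direction is given for the ring.

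The proteins that turn the MCM ring into a moving helicase were lower in part. Cdc45 had 30.5, 29.4, 29.4, 30.8 and 30.4 FPKM in CD8+4T1 and 19.6, 22.6, 21.3, 20.5 and 23.2 FPKM in CD8+4T1+NaAc. The samples without NaAc lay close together and well above all samples with it. Its log2 fold change was -0.49 (standard error 0.05, limma adjusted p = 7.09e-05). The listed span of Cdc45 overlaps that of Ufd1, and the strand setting of the counting is not given in the sources used here.

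Gins1, the GINS subunit also called PSF1, was at 13.5, 12.6, 12.9, 13.9 and 12.6 FPKM without NaAc and at 10.2, 9.90, 8.27, 8.11 and 9.81 FPKM with it. The groups did not overlap, and the log2 fold change was -0.50 (standard error 0.07, limma adjusted p = 0.000479). Gins4 (SLD5) was at 32.3, 32.04, 32.3, 31.1 and 33.5 FPKM without NaAc and at 27.4, 27.7, 25.6, 26.995 and 27.1 FPKM with it. These groups did not overlap either, and the step was smaller (log2 fold change -0.26, standard error 0.04, limma adjusted p = 0.000562). With the same total the change of Gins4 was -0.08 and its call was lost, as it was with T cell marker scaling.

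The other GINS subunits were not called. Gins2 had 4.54 to 7.95 FPKM without and 6.08 to 7.85 FPKM with NaAc (log2 fold change 0.12, standard error 0.14), and Gins3 had 4.66 to 6.73 and 4.77 to 6.51 FPKM (0.02, standard error 0.11). Both overlapped between groups. Mcm10, which helps the helicase to start, was at 10.7, 10.3, 11.4, 10.5 and 11.8 FPKM without NaAc and at 9.51, 12.03, 9.47, 10.1 and 10.9 FPKM with it. The groups overlapped, and Mcm10 was not called (log2 fold change -0.08).

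The ratio of Gins2 to Cdc45, parts of the same helicase, was 0.149, 0.229, 0.211, 0.258 and 0.235 in CD8+4T1 and 0.311, 0.332, 0.369, 0.315 and 0.307 in CD8+4T1+NaAc. Every sample with NaAc was above every sample without it. The means were 0.216 ± 0.0414 and 0.327 ± 0.0252 (SD, n = 5 each), a log2 difference of 0.62 (exact permutation test, two-sided, p = 0.00794, adjusted p = 0.0198), and the limit given for the first ratio holds here, since Cdc45 was itself called. The ratio of Mcm10 to Mcm2 was 0.427 ± 0.0166 and 0.431 ± 0.0253 (SD, n = 5 each, exact permutation test, adjusted p = 0.778).

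**Figure D5:**
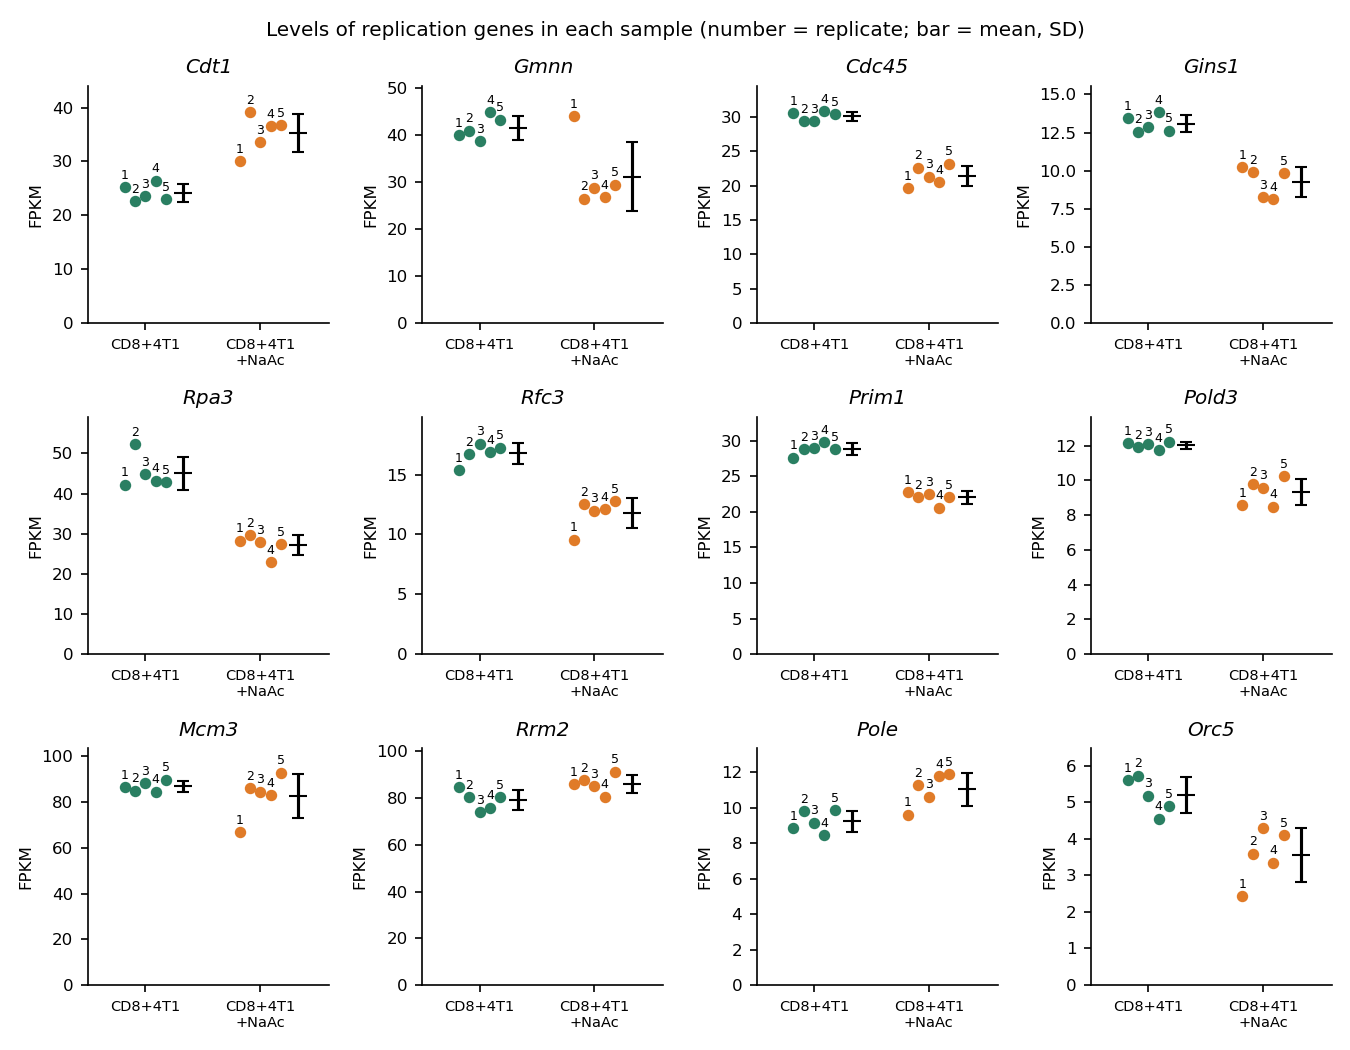
FPKM of 12 replication genes in each sample, with a panel for each gene and each y axis starting at 0. Points are samples labelled by replicate, and bars give the mean and SD of each group. Cdt1 is higher and Cdc45, Gins1, Rpa3, Rfc3, Prim1, Pold3 and Orc5 are lower in all samples with NaAc, while Gmnn of replicate 1 with NaAc, at 44.0 FPKM, sits among the CD8+4T1 samples.

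In the origin recognition complex, Orc5 and Orc1 were lower and the other 4 subunits were not called. Orc5, a core subunit, had 5.60, 5.73, 5.18, 4.55 and 4.88 FPKM in CD8+4T1 and 2.44, 3.60, 4.28, 3.35 and 4.10 FPKM in CD8+4T1+NaAc. The groups did not overlap, and replicate 1 with NaAc was the lowest. The log2 fold change was -0.55 (standard error 0.14, limma adjusted p = 0.0103), and -0.43 (adjusted p = 0.00470) without that replicate. With the same total it was -0.38 (adjusted p = 0.0506), and the listed span overlaps those of Gm15421 and Gm22887.

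Orc1, the subunit whose level follows the cell cycle, was at 9.36, 8.60, 8.13, 8.18 and 8.95 FPKM without NaAc and at 7.14, 7.73, 7.05, 7.83 and 7.62 FPKM with it (log2 fold change -0.21, standard error 0.06, limma adjusted p = 0.0166). Its groups did not overlap, but the call was lost with the same total (-0.03, adjusted p = 0.757), with T cell marker scaling and with scaling to fragments in listed genes. For Orc2, Orc3, Orc4 and Orc6 the log2 fold changes were -0.04, 0.14, 0.02 and 0.04. Orc3 reached 0.23 (adjusted p = 0.0190) without replicate 1 of CD8+4T1+NaAc.

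At the start of strands, Prim1, the catalytic subunit of primase, was lower. It had 27.6, 28.9, 29.0, 29.9 and 28.9 FPKM in CD8+4T1 and 22.8, 22.1, 22.5, 20.6 and 22.1 FPKM in CD8+4T1+NaAc. The groups were wide apart against their own spread (log2 fold change -0.39, standard error 0.04, limma adjusted p = 8.1e-05). Prim2, the regulatory subunit of primase, was at 7.005 to 8.09 FPKM without and 6.14 to 8.61 FPKM with NaAc and was not called (log2 fold change 0.02). Pola1, the catalytic subunit of DNA polymerase alpha, had 6.55, 6.84, 7.56, 6.07 and 6.97 FPKM without NaAc and 5.296, 6.08, 5.93, 5.71 and 6.18 FPKM with it. The groups overlapped slightly (log2 fold change -0.21, limma adjusted p = 0.0334), and the call was lost in 11 of the 26 alternatives. Pola2, the regulatory subunit, was not called (0.10).

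Single-strand DNA is held by RPA, and Rpa3, its smallest subunit, showed the largest fall of the 45 genes. Its levels were 42.2, 52.2, 44.8, 43.2 and 42.8 FPKM in CD8+4T1 and 28.3, 29.6, 27.8, 22.9 and 27.3 FPKM in CD8+4T1+NaAc. Replicate 2 stood above the rest of CD8+4T1, and no sample with NaAc came near that group. The log2 fold change was -0.73 (standard error 0.08, limma adjusted p = 8.22e-05), -0.67 to -0.76 with any sample left out and -0.55 with the same total. Pseudogenes named for Rpa3 held at most 1.12% of its fragments in a sample. Rpa1, the large subunit, was at 35.8, 36.7, 37.8, 36.9 and 38.4 FPKM without NaAc and at 34.8, 40.8, 41.02, 37.03 and 38.96 FPKM with it (log2 fold change 0.05). The groups of Rpa1 overlapped. Rpa2 was at 28.003 to 29.6 and 21.9 to 31.2 FPKM (-0.05). Neither Rpa1 nor Rpa2 was called.

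The clamp loader RFC has a large subunit, Rfc1, and 4 small ones, Rfc2 to Rfc5. Rfc3 had 15.4, 16.7, 17.6, 16.9 and 17.3 FPKM in CD8+4T1 and 9.56, 12.5, 11.98, 12.1 and 12.8 FPKM in CD8+4T1+NaAc. The groups did not overlap, with replicate 1 the lowest in both. The log2 fold change was -0.51 (standard error 0.08, limma adjusted p = 0.000603), and -0.44 (adjusted p = 7.64e-05) without replicate 1 of CD8+4T1+NaAc.

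Rfc4 was at 28.3, 26.7, 27.1, 26.2 and 29.8 FPKM without NaAc and at 18.2, 24.6, 22.8, 21.9 and 25.8 FPKM with it. There was no overlap, and replicate 1 with NaAc was the lowest (log2 fold change -0.29, limma adjusted p = 0.0210). Its call was lost in 6 of the 26 alternatives, among them the same total (-0.12, adjusted p = 0.302), T cell marker scaling (-0.15, adjusted p = 0.183), scaling to fragments in listed genes (-0.20, adjusted p = 0.0753) and the length trend removed (-0.24, adjusted p = 0.0628), and it was also lost without replicate 5 of CD8+4T1. Its listed span overlaps that of Eif4a2. Rfc1, Rfc2 and Rfc5 had log2 fold changes of 0.08, -0.06 and -0.01 and were not called. Rfc1 was called higher without replicate 1 of CD8+4T1+NaAc (0.12, limma adjusted p = 0.0226), under 3 of the 5 scalings (0.26 with the same total, adjusted p = 0.00214) and with sample weights (0.10, adjusted p = 0.0318).

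Pcna, the clamp itself and a common marker of proliferating cells, had 74.2, 90.8, 87.1, 78.9 and 89.3 FPKM in CD8+4T1 and 49.7, 73.4, 74.1, 67.6 and 79.0 FPKM in CD8+4T1+NaAc. The groups overlapped, and replicate 1 was the lowest of each. Its log2 fold change was -0.30 (95% confidence interval -0.56 to -0.04, limma adjusted p = 0.0669), which missed the threshold. Without replicate 1 of CD8+4T1+NaAc it was -0.19 (adjusted p = 0.0492). Pcna was also called lower with the replicate block (adjusted p = 0.0157), with sample weights (0.0150), by voom (0.0365), among protein-coding genes alone, among genes that average 5 FPKM or more and without replicate 5 of CD8+4T1+NaAc or replicate 1 of both groups, and under 0 of the 5 scalings (-0.32, adjusted p = 0.0585 with median-ratio scaling to -0.13, adjusted p = 0.391 with the same total). With the length trend removed it was not called either (adjusted p = 0.0707). Pseudogenes named for Pcna held a median of 1.37% of its fragments.

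The polymerases that extend the strands were mixed. Pole, the catalytic subunit of DNA polymerase epsilon, had 8.86, 9.79, 9.16, 8.45 and 9.87 FPKM in CD8+4T1 and 9.61, 11.3, 10.6, 11.8 and 11.9 FPKM in CD8+4T1+NaAc. Replicate 1 with NaAc lay inside the range of CD8+4T1 and the other 4 above it (log2 fold change 0.25, standard error 0.07, limma adjusted p = 0.0169). Pold1, the catalytic subunit of DNA polymerase delta, was at 23.3, 20.5, 20.5, 21.4 and 21.4 FPKM without NaAc and at 23.6, 26.6, 23.3, 25.4 and 23.01 FPKM with it (0.19, standard error 0.06, limma adjusted p = 0.0224). Its groups overlapped, and its call was lost when any of 4 single samples was omitted. With the replicate number as a block the call of Pold1 was lost too (limma adjusted p = 0.0539). When the trend of fold change with gene length was removed, an alternative added after the data were seen that called 1 replication gene higher and 13 lower (15.7% and 22.0% of all genes tested), Pole (0.15, adjusted p = 0.140) and Pold1 (0.13, adjusted p = 0.0703) were no longer called. The listed spans of Pole and Pold1 overlap those of Gm15792 and Gm44833.

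Pold3, an accessory subunit of DNA polymerase delta, went the other way. It was at 12.2, 11.9, 12.1, 11.8 and 12.2 FPKM in CD8+4T1 and at 8.58, 9.79, 9.59, 8.48 and 10.2 FPKM in CD8+4T1+NaAc. The groups did not overlap (log2 fold change -0.37, standard error 0.06, limma adjusted p = 0.000789). Pold2 (-0.04) and Pole2 (-0.17, limma adjusted p = 0.0770) were not called. Pole2 was called lower with the length trend removed (-0.19, limma adjusted p = 0.0445) and without replicate 3 of CD8+4T1+NaAc. The ratio of Pole to Pold1 was 0.432 ± 0.0422 and 0.453 ± 0.0423 (SD, n = 5 each, exact permutation test, adjusted p = 0.565).

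Of the 45 genes, those that finish the strands, supply nucleotides or assemble chromatin had no call. Fen1, the flap nuclease of Okazaki fragments, was the least precise of the 45 genes (3.95 to 7.76 FPKM without, 4.10 to 5.48 FPKM with NaAc, log2 fold change -0.31, standard error 0.16). It was called lower without replicate 1 of CD8+4T1 (-0.44, limma adjusted p = 0.0184), with sample weights (-0.40, adjusted p = 0.0248) and without replicate 1 of both groups (-0.50, adjusted p = 0.00689), and stood at -0.20 without replicate 2 of CD8+4T1. Lig1, the ligase, was at 24.4, 24.6, 24.1, 25.8 and 28.01 FPKM without NaAc and at 24.4, 24.9, 23.7, 24.5 and 25.1 FPKM with it (-0.05), and the groups overlapped. Rrm2, the small subunit of ribonucleotide reductase, was at 84.7, 80.6, 73.9, 75.9 and 80.5 FPKM without and 86.1, 87.7, 85.1, 80.6 and 91.4 FPKM with NaAc. These groups overlap slightly, and the log2 fold change of 0.12 (95% confidence interval 0.01 to 0.24) had a limma adjusted p of 0.0856. Rrm1, the large subunit, was at 26.7, 27.5, 26.9, 25.9 and 29.5 FPKM without NaAc and at 22.5, 28.3, 26.2, 26.5 and 30.8 FPKM with it (log2 fold change -0.03). The ratio of Rrm2 to Rrm1 was 2.90 ± 0.179 and 3.23 ± 0.345 (SD, n = 5 each, exact permutation test, adjusted p = 0.106). Chaf1a and Chaf1b deposit histones behind the fork. Chaf1a was at 10.02, 9.78, 9.82, 10.8 and 10.1 FPKM without NaAc and at 13.3, 11.99, 10.4, 10.6 and 9.08 FPKM with it (0.12). Its groups overlapped, as did those of Chaf1b (0.09). By limma, 0 of these 6 genes were called and 1 of them, Rrm2, had an unadjusted p under 0.05, and voom called 0. Rrm2 was called higher under 3 of the 5 scalings (0.30 with the same total, limma adjusted p = 0.00258), with sample weights (adjusted p = 0.0339) and without replicate 1 of CD8+4T1 or of both groups. Chaf1b was called higher with the same total and with T cell marker scaling, and Chaf1a with the same total.

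Subunits of the same complex were also set side by side within samples, in pairs chosen after their values were seen and therefore given without a test. The ratio of Rpa3 to Rpa1 was 1.11 to 1.42 in CD8+4T1 and 0.618 to 0.813 in CD8+4T1+NaAc. That of Rfc3 to Rfc2 was 0.882 to 0.974 and 0.649 to 0.712, and that of Pold3 to Pold1 was 0.523 to 0.589 and 0.334 to 0.445. In these pairs the subunit named first took a smaller part in every sample with NaAc than in any without it. The ratio of Orc5 to Orc4 was 0.896 to 1.152 and 0.426 to 0.828, and that of Gins1 to Gins2 was 1.74 to 2.96 and 1.05 to 1.68, likewise without overlap. For Prim1 to Prim2 the ranges were 3.69 to 3.95 and 2.57 to 3.72 and overlapped.

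Other genes that act at the fork, from a list of 40, had 2 called higher and 6 lower (17.6% and 19.0% of all genes tested), with a median log2 fold change of -0.02. With the same total 15 of the 40 were higher and 4 lower, beside 31.2% and 8.83% of all genes tested. Without replicate 1 of CD8+4T1+NaAc 10 were higher, beside 21.7% of all genes tested. With FPKM as listed, the 4 largest changes among the 40 were those of Pole4 (-0.43), Pclaf (-0.42), Pole3 (-0.39) and Tipin (-0.39), each with a limma adjusted p of at most 0.00228. Pole3 and Pole4 are accessory subunits of DNA polymerase epsilon, Pclaf binds PCNA, and Tipin protects the fork together with Timeless. Chtf18, part of an alternative clamp loader, was higher (0.38, limma adjusted p = 0.00545), as was Rnaseh2a (0.25, limma adjusted p = 0.0179). The 7 kinases and factors that fire origins, among them Cdc7 and Dbf4, had log2 fold changes from -0.08 to 0.18 and limma adjusted p of at least 0.138. In replicate 1 with NaAc, Dbf4 was at 5.62 FPKM and Topbp1, another of them, at 22.5 FPKM. The other samples with NaAc had, in the same order, 7.78 to 8.67 and 26.2 to 27.05 FPKM. Both ranges lay above those of CD8+4T1, 6.45 to 7.57 and 22.8 to 24.5 FPKM. Cdc7 was instead highest in that replicate, at 10.1 FPKM.

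Of 18 genes that control entry into S phase, 2 were higher and 5 lower, beside the same shares of all genes tested. Ccne1, which encodes cyclin E1, rose from 12.1 ± 1.16 to 16.8 ± 1.57 FPKM (SD, n = 5 each, log2 fold change 0.46, limma adjusted p = 0.00146), and E2f1 rose from 13.6 ± 0.892 to 17.8 ± 1.305 FPKM (SD, n = 5 each, 0.39, limma adjusted p = 0.000905), both without overlap. Cdc25a, a phosphatase that activates S phase kinases, was lower (-0.25, limma adjusted p = 0.00495), as was E2f3 (-0.24, limma adjusted p = 0.0286). Of 18 genes of mitosis 3 were higher and 3 lower, close to those shares, with a median of -0.01. The 4 largest changes there were those of Cenpf (0.33), Nusap1 (-0.32), Mki67 (0.30) and Kif20a (0.21). With the same total no gene of either list was called lower.

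As a share of the fragments in listed genes, the 45 genes together held 0.466% to 0.485% in CD8+4T1 and 0.447% to 0.519% in CD8+4T1+NaAc. The groups overlapped, replicate 1 with NaAc was the lowest sample and the other 4 lay above every sample of CD8+4T1. The summed FPKM of the 45 genes as listed leaned the other way, with 1132 to 1199 (median 1153) in CD8+4T1 and 998 to 1174 (median 1108) in CD8+4T1+NaAc, and the groups overlapped there too.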

How the data were processed

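RNA from 10 samples of purified CD8+ T cells, 5 in each group by the sample labels, was sequenced from libraries made with a NEBNext Ultra kit. The authors deposited FPKM, 1 column per sample, with gene positions and, as an other, unnormalized column, the gene length. According to the submitters' processing notes and the methods, fastp, HISAT2 2.0.5, StringTie 1.3.3b and featureCounts 1.5.0-p3 were used. The genome build and strand setting are not given in the sources used here, and of 52073 genes shared with GENCODE for GRCm38 1467 have the same listed start and end. Promoters therefore come from RefSeq alone.

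The study compared counts with DESeq2, but FPKM are not counts. The 15710 of 57825 genes averaging 0.5 FPKM or more over all samples entered a limma fit (limma 3.58.1, R 4.3.3) of log2(FPKM + 0.1), a scale on which fold changes of low genes are understated, with a variance trend, robust moderation and Benjamini-Hochberg adjustment over all genes tested. FPKM times length came out as whole multiples of 1 fragment for 100% of values (tolerance 0.1), which gave the depth and a voom alternative. Between 15010132 and 17269435 fragments per sample lay in listed genes, and intervals cover these samples only. The fit was first tested on simulated data with known changes. It called 45.5% of 99 genes changed by 0.5 (log2), 87.2% of 94 changed by 1 and 0.0386% of the unchanged genes. Far fewer genes were changed there than were called in these data, so these rates may not carry over. Ratios of 2 genes within a sample were compared on the log2 scale by an exact permutation test in scipy 1.17.1. The genes, lists and ratios were chosen with earlier results of these data known. All 45 replication genes are reported, and from each further list the 4 largest changes among the genes called, with further genes named after their values were seen. Same-numbered samples deviated from their group means with a mean correlation of 0.01 across genes. Alternatives changed the pseudocount (1, 0.01), filter, scaling, model, threshold, genes and samples, and scaling to fragments in listed genes and removal of the length trend were added after the data were seen.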

Additional observations from a re-analysis of the deposited data

Results flagged for a closer look

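In 5 of the 100 groups of 5 values examined (each replication gene and each ratio in each group), the highest or lowest sample stood away from the rest by more than 0.71 of the group's range on the log2 scale, and chance alone flags about 1 in 20 such groups. Gmnn in replicate 1 of CD8+4T1+NaAc was the highest of its group, with a gap of 0.792 of the range. In the same sample Rfc3 (0.776) and Rfc5 (0.767) were the lowest of their group. Rpa3 in replicate 2 of CD8+4T1 was the highest of its group (0.719), and Chaf1a in replicate 4 of CD8+4T1 was the highest of its group (0.735). On the linear scale, added after the data were seen, these 5 passed again with a gap of 0.740 to 0.831 of the range, and the ratio of Gmnn to Cdt1 in replicate 1 of CD8+4T1+NaAc, the highest of its group, passed as well (0.769).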

How the results depend on the processing

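With pseudocounts of 1 or 0.01, a mean of at least 5 FPKM, median-ratio scaling, limma with neither variance trend nor robust step, protein-coding genes alone and voom, the counts and the median of the replication genes stayed within 1.5 times or within the spread between samples. With no filter, which left 32272 genes to test, 3 S phase control genes were lower, beside 8.07% of all genes tested. With the same total 15 replication genes were higher and 6 lower (median 0.13), 15 other fork genes higher, 7 S phase control genes higher and 0 lower, and 9 mitosis genes higher and 0 lower; Cdc6 changed sign, to 0.021 (adjusted p = 0.775). T cell marker scaling gave 13 higher and 7 lower replication genes (median 0.11), 13 and 3 other fork genes, 4 and 0 S phase control genes and 7 and 0 mitosis genes. Scaling to fragments in listed genes gave 9 and 8 replication genes (median 0.049), 11 other fork genes higher, 4 and 1 S phase control genes and 1 mitosis gene lower. With sample weights 8 replication genes were higher and 15 lower, where 23.7% of all genes tested were higher and 24.7% lower. In that fit 11 other fork genes were higher and 10 lower, 4 S phase control genes higher and 5 mitosis genes lower. With the length trend removed 1 replication gene was higher and 13 lower, and 5 mitosis genes were lower. At an adjusted p under 0.01, 8 replication genes were called, 1 higher and 7 lower, with 1 other fork gene higher, 1 S phase control gene lower and 1 mitosis gene lower, where 11.7% of all genes tested were higher and 11.9% lower. The cause of these changes beyond the scaling, threshold or samples themselves was not tested.

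Leaving out each sample in turn gave 13 to 20 called replication genes, 2 to 7 higher and 10 to 14 lower, with a median of -0.06 to -0.004, where 31.5% to 44.3% of all genes tested were called, most without replicate 1 of CD8+4T1+NaAc. Other fork genes ranged from 2 to 10 higher and 6 to 8 lower, S phase control genes from 2 to 4 higher and 2 to 5 lower, and mitosis genes from 2 to 4 higher and 2 to 5 lower. The 7 higher replication genes, 10 other fork genes, 4 S phase control genes and 5 lower mitosis genes were without replicate 1 of CD8+4T1+NaAc, and the 2 lower S phase control genes were without replicate 3 of it. In the same fits the ratios lay at -1.17 to -0.89 for Gmnn to Cdt1, 0.49 to 0.69 for Gins2 to Cdc45, 0.090 to 0.184 for Rrm2 to Rrm1, 0.02 to 0.11 for Pole to Pold1 and -0.01 to 0.05 for Mcm10 to Mcm2. The ratio of Rrm2 to Rrm1 passed without replicate 1 of CD8+4T1 (0.18, exact permutation test, adjusted p = 0.0265) and without replicate 1 of both groups (0.12, exact permutation test, adjusted p = 0.0476). That last setting gave 7 replication genes higher and 14 lower, beside 21.8% and 22.6% of all genes tested. It also gave 11 other fork genes higher and 5 S phase control genes higher.

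The replicate numbers gave little sign of pairs, with a mean correlation of 0.01. The best match carried the same number for replicates 1 (0.04) and 4 (0.07), and another number for replicates 2, 3 and 5. Replicate 1 had the fewest genes above 0 in both groups (22291 in CD8+4T1 and 20233 in CD8+4T1+NaAc). Whether samples of that number share a source was not tested. With the replicate number as a block 2 replication genes were higher and 13 lower, and 3 S phase control genes were lower, where 16.2% of all genes tested were higher and 18.1% lower. Pold1 and Cdc6 lost their calls with the block, and Pcna gained one. The ratios of Gmnn to Cdt1 (-0.98) and Gins2 to Cdc45 (0.62) then had an adjusted p of 0.104 by exact sign flips, which cannot give an unadjusted p under 0.0625 and so say nothing about stability. Sign changes of genes called in neither fit are not counted as reversals.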

Other observations

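Across the 45 replication genes the log2 fold change went with the listed gene length, with a Spearman rho of 0.39, and across all 15710 genes tested rho was 0.15. These are descriptions across genes, which share their samples. Of the 15 shortest replication genes (1136 to 3479 bases) 1 was called higher and 6 lower, with a median log2 fold change of -0.21. All genes tested in that range of lengths had a median of -0.05, with 17.3% called higher and 22.9% lower. Of the 15 longest replication genes (5229 to 11160 bases) 1 was higher and 3 lower, with a median of 0.02, as was the median of all genes tested in that range, of which 22.8% were higher and 17.7% lower. Rpa3, with the largest fall, was among the shortest, and its call and those of Cdc45, Gins1, Rfc3, Prim1, Pold3 and Cdt1 held with the length trend removed.

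In replicates 1 to 5 with NaAc the summed 4T1 markers stood at 204, 385, 261, 306 and 183 FPKM. In the same order Cdt1 stood at 30.01, 39.2, 33.5, 36.6 and 36.8 FPKM and Cdc45 at 19.6, 22.6, 21.3, 20.5 and 23.2 FPKM. The part of tumor RNA in these levels was not tested.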
